A study of Mus musculus with 16 samples.

Results

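The genes described here are the ketone body enzymes Acat1, Bdh1, Bdh2 and Hmgcll1 and the monocarboxylate transporters Slc16a1, Slc16a6 and Slc16a7, taken from a list by name. All 7 were measured, among 18820 genes in all. Each was represented by 1 probe set with a single gene symbol. Liver RNA of male mice aged 14 to 16 weeks was measured on whole-transcript arrays in 4 groups of 4. The groups were fasted KO (vanin-1 knockout, 24 h without food), fasted WT (wild type, 24 h without food), fed KO (vanin-1 knockout, 24 h of normal feeding) and fed WT (wild type, 24 h of normal feeding). All groups shared the C57Bl/6J background, standard chow and individual housing. The labels describe the knockout only as vanin-1 null and give neither the targeted exon nor the way it was bred. Whether every array came from its own mouse is not spelled out, and p-values here measure no more than the variation among these 16 samples.

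Ketone bodies are made in liver mitochondria from the acetyl-CoA that fatty acid oxidation yields. Acat1, the mitochondrial acetoacetyl-CoA thiolase, joins acetyl-CoA units in the opening step, and it also splits acetoacetyl-CoA in tissues that burn ketone bodies. Bdh1, the mitochondrial beta-hydroxybutyrate dehydrogenase, interconverts acetoacetate and beta-hydroxybutyrate. Bdh2 is a cytosolic dehydrogenase that was also named for beta-hydroxybutyrate, and Hmgcll1 is a hydroxymethylglutaryl-CoA lyase found outside mitochondria. Slc16a1 (MCT1) and Slc16a7 (MCT2) carry ketone bodies, lactate and pyruvate across membranes with a proton. Slc16a6 was described as a ketone body exporter of hepatocytes in zebrafish. Vanin-1, encoded by Vnn1, is a pantetheinase that releases pantothenate, the precursor of coenzyme A, and fasting of the wild type and knockout liver asks how each adapts to burning fat.

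The promoter sequences of the member with the largest rise on fasting, Slc16a1, and of the one with the largest fall, Bdh2, are shown so that the opposite responses can be set beside the letters in front of each gene. Each is the 250 bases before the gene start in RefSeq (GRCm38.p6, plus strand, 5′ to 3′), at chr3:104638414-104638663 for Slc16a1 and chr3:135280971-135281220 for Bdh2. Capitals mark an E-box (CACGTG).
Slc16a1: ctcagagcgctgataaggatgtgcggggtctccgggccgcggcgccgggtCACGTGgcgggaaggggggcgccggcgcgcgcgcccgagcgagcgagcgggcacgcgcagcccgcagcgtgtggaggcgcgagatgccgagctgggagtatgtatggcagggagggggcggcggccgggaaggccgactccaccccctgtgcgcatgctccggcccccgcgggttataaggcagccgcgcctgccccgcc
Bdh2: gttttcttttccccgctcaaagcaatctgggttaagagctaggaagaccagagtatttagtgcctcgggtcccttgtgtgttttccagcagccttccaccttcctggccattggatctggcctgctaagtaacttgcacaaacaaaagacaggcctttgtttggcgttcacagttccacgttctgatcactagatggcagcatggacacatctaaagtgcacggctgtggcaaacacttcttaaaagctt

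The Slc16a1 window held 37 CpG pairs and 76.4% G and C, against 5 CpG pairs and 48.0% in the Bdh2 window. Over all 32851 promoter windows of that length the medians were 6 CpG pairs and 52.4% G and C. Of the members, 4 of 7 had entries in the promoter table (Slc16a1, Bdh2, Hmgcll1 and Bdh1, the last with a pair of starts). Each window was searched on both strands for the PPAR direct repeat (AGGTCA, any 1 base, AGGTCA), the cAMP response element TGACGTCA and the E-box CACGTG; no matches of different motifs overlapped. The E-box in the Slc16a1 window, which begins 200 bases before the start, was the sole match in the members' windows. In all windows the E-box was present in 6.02%, the cAMP response element in 1.55% and the direct repeat in 0.0335%.

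Values are log2 RMA intensities, so a difference of 1 is a doubling in signal, and levels of different probe sets are not compared with each other. Array medians lay between 5.19 and 5.29. Group values are means ± SD (n = 4), differences are fasted minus fed or KO minus WT, and a gene counts as called when its limma p-value, adjusted over all 18820 genes, lies below 0.05. Precision is limited by having 4 arrays in a group.

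The label of each array was checked on Vnn1, the gene that encodes vanin-1. Vnn1 lay at 4.26, 4.22, 3.67 and 3.77 on fasted KO arrays 1 to 4, against 11.47, 11.24, 9.93 and 10.60 on fasted WT arrays 1 to 4. It lay at 3.85, 3.84, 3.80 and 4.06 on the fed KO arrays, against 10.34, 8.74, 9.85 and 6.71 on the fed WT arrays. Every KO array was below every WT array. The 9 measured hepatocyte markers averaged 12.73 to 12.92 on all arrays. Of the other marker lists, the bile duct, lymphocyte and adipocyte ones averaged at most 5.11 on every array. Fasted WT 4 stood apart with pancreatic acinar markers, which averaged 8.71 there over 6 genes and at most 4.22 in the fasted KO, fed KO and fed WT groups. Fed KO 4 had the highest acute phase average, at 11.32 over 11 genes. Of these, 4 were lower in fasted KO than in fed KO liver, the group that holds fed KO 4. In WT liver 1 was lower in fasted than in fed. Of all genes, 4.89% in KO and 4.27% in WT liver were lower on fasting. Fed WT 4 had the highest Kupffer cell average of all arrays, at 9.21, and the highest endothelial average, at 9.33. Its Vnn1 value, 6.71, was the lowest of the WT arrays. In bulk tissue, fewer cells of a type and less RNA per cell cannot be told apart.

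**Figure D1:**
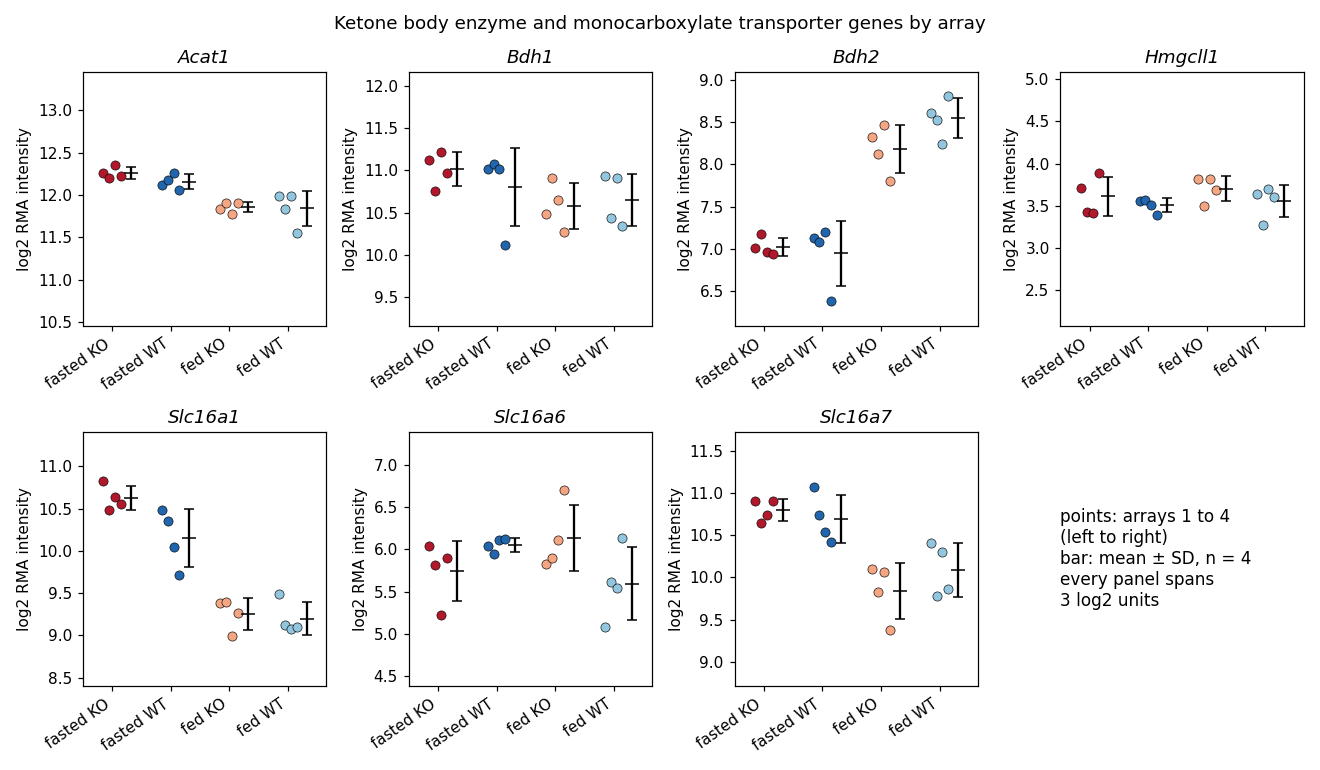
Log2 RMA intensity (vertical axis) of the 7 genes on each array, with fasted KO, fasted WT, fed KO and fed WT from left to right. Points are arrays 1 to 4 of each group and bars are means ± SD (n = 4). Every panel spans 3 log2 units. Acat1, Slc16a1 and Slc16a7 lay higher and Bdh2 lower on all fasted arrays than on the fed arrays of the same genotype.

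Fasting moved the same 4 members in both genotypes, with Slc16a1, Slc16a7 and Acat1 higher and Bdh2 lower in fasted liver. Slc16a1 rose 2.58-fold in KO and 1.94-fold in WT liver, and Slc16a7 rose 1.94-fold in KO and 1.52-fold in WT liver. Acat1 rose 1.32-fold in KO and 1.25-fold in WT liver. Bdh2 fell by 1.16 on the log2 scale in KO liver and fell by 1.60 in WT liver, which is 2.23-fold and 3.03-fold. Bdh1, Slc16a6 and Hmgcll1 did not pass the test in either genotype.

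In KO liver 4 of 7 members were called, against 9.42% of all genes, 3 higher (4.53% of all genes) and 1 lower (4.89%). In WT liver the count was also 4 of 7, against 7.61% of all genes, 3 higher (3.34%) and 1 lower (4.27%). The median log2 difference of the 7 genes was 0.40 in KO and 0.32 in WT liver, beside 0.02 and 0.01 over all genes tested. Arrays of fasted and fed liver did not overlap for 4 of 7 members in KO liver, against 17.0% of all genes, and for 4 of 7 in WT liver, against 12.4%. Both counts of called members were 4 under median centring, quantile and cyclic loess normalisation. Without both fasted WT 4 and fed KO 4, 4 members were called in KO and 3 in WT liver. Acat1 no longer passed there in WT liver (log2 difference 0.35, limma adjusted p = 0.0570). Without fed WT 4, 2 members were called in WT liver.

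The enzymes are taken first. Acat1 lay at 12.26, 12.20, 12.36 and 12.23 on fasted KO arrays 1 to 4, against 11.84, 11.91, 11.78 and 11.90 on fed KO arrays. In WT liver it lay at 12.12, 12.18, 12.27 and 12.06 on fasted arrays, against 11.99, 11.84, 11.99 and 11.55 on fed arrays. Fasted arrays were above fed arrays without overlap in each genotype, and fed WT 4 was the lowest of all 16. The log2 difference was 0.40 in KO (SE 0.09, limma adjusted p = 0.00819) and 0.32 in WT liver (SE 0.09, limma adjusted p = 0.0400). Without fed WT 4 the WT difference was 0.22 (limma adjusted p = 0.119). The WT call ended on leaving out any 1 of 10 arrays, namely fasted KO 1 and 4, fasted WT 1 to 4, fed KO 1 and 2, and fed WT 2 and 4 (limma adjusted p = 0.0502 to 0.119). The KO call held whichever array was left out.

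Bdh1 lay at 11.12, 10.76, 11.21 and 10.97 on fasted KO arrays 1 to 4, against 10.48, 10.91, 10.65 and 10.27 on fed KO arrays. On fasted WT arrays it lay at 11.02, 11.07, 11.02 and 10.12, against 10.93, 10.43, 10.91 and 10.35 on fed WT arrays. The groups overlapped in each genotype, and fasted WT 4 was the lowest of all 16 arrays. The log2 difference was 0.44 in KO (SE 0.20, 95% interval 0.01 to 0.86, limma adjusted p = 0.208) and 0.15 in WT liver (SE 0.20, 95% interval -0.27 to 0.58, limma adjusted p = 0.727). The WT difference ran from 0.05 without fed WT 4 (limma adjusted p = 0.931) to 0.38 without fasted WT 4 (limma adjusted p = 0.228). These intervals do not leave out changes of the size seen for Acat1.

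Bdh2 was the one member that fell. It lay at 7.01, 7.17, 6.96 and 6.94 on fasted KO arrays 1 to 4, against 8.33, 8.12, 8.47 and 7.81 on fed KO arrays. In WT liver it lay at 7.13, 7.08, 7.20 and 6.38 on fasted arrays, against 8.61, 8.52, 8.24 and 8.81 on fed arrays. Every fasted array was below every fed array, across genotypes as well. The log2 difference was -1.16 in KO (SE 0.17, limma adjusted p = 3.47e-04) and -1.60 in WT liver (SE 0.17, limma adjusted p = 6.17e-05). The call held in each genotype whichever array was left out, with differences of -1.28 to -1.06 in KO and -1.70 to -1.41 in WT liver.

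Fasted WT 4, the array with the acinar transcripts, was the lowest of its group for 6 of 7 members, all but Slc16a6. Whether the acinar RNA on that array lowered these values was not tested. Without it the WT fasting difference was -1.41 for Bdh2, 1.10 for Slc16a1 and 0.69 for Slc16a7, each still called (limma adjusted p = 6.32e-05, 3.18e-04 and 0.0419). Acat1 was no longer called without that array (0.35, limma adjusted p = 0.0537).

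Hmgcll1 gave little signal. Its arrays ran from 3.42 to 3.89 in fasted KO, 3.39 to 3.57 in fasted WT, 3.50 to 3.82 in fed KO and 3.27 to 3.70 in fed WT liver, all under the array medians. The log2 difference on fasting was -0.09 in KO (limma adjusted p = 0.710) and -0.05 in WT liver (limma adjusted p = 0.860). At such levels a fall could be hidden, and the values do not say whether the gene is expressed. No rise was called, with 95% intervals of -0.34 to 0.15 in KO and -0.30 to 0.20 in WT liver. Whether this probe set could show a rise was not tested.

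Of the 3 transporters among the members, Slc16a1 had the largest rise. It lay at 10.82, 10.48, 10.64 and 10.56 on fasted KO arrays 1 to 4, against 9.38, 9.39, 8.99 and 9.26 on fed KO arrays. It lay at 10.48, 10.36, 10.04 and 9.72 on fasted WT arrays, against 9.49, 9.13, 9.07 and 9.09 on fed WT arrays. All 8 fasted arrays were above all 8 fed arrays. The log2 difference was 1.37 in KO (SE 0.15, limma adjusted p = 2.51e-05) and 0.95 in WT liver (SE 0.15, limma adjusted p = 9.28e-04). It stayed called with each array left out in turn, at 1.28 to 1.42 in KO and 0.84 to 1.10 in WT liver. The order of the group means was fasted KO, fasted WT, fed KO and fed WT, where the fed groups overlapped.

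Slc16a7 lay at 10.90, 10.64, 10.74 and 10.90 on fasted KO arrays 1 to 4, against 10.10, 9.82, 10.06 and 9.37 on fed KO arrays. In WT liver it lay at 11.06, 10.74, 10.53 and 10.41 on fasted arrays, against 10.41, 9.78, 10.30 and 9.86 on fed arrays. The KO groups were well apart, while fasted WT 4 and fed WT 1 differed by less than the rounding used here. The log2 difference was 0.95 in KO (SE 0.18, limma adjusted p = 0.00204) and 0.60 in WT liver (SE 0.18, limma adjusted p = 0.0461). In WT liver the call ended on leaving out any 1 of 11 arrays, namely fasted KO 1 to 4, fasted WT 1 to 3, fed KO 2 and 3, and fed WT 2 and 4 (limma adjusted p = 0.0507 to 0.132, log2 differences 0.47 to 0.65). The KO call held for each array left out.

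Slc16a6 lay at 6.04, 5.82, 5.23 and 5.90 on fasted KO arrays 1 to 4, against 5.83, 5.90, 6.11 and 6.70 on fed KO arrays. It lay at 6.04, 5.95, 6.11 and 6.13 on fasted WT arrays, against 5.08, 5.62, 5.55 and 6.13 on fed WT arrays. The fasted and fed arrays overlapped in each genotype. The log2 difference had opposite signs, -0.39 in KO (95% interval -0.84 to 0.06, limma adjusted p = 0.311) and 0.46 in WT liver (95% interval 0.01 to 0.91, limma adjusted p = 0.225), and neither passed. Single arrays moved both values: the KO difference was -0.20 without fed KO 4, and the WT difference was 0.29 without fed WT 1. RefSeq places Arsg and the predicted gene Gm45916 across the Slc16a6 locus, and Gm15743 and Gm46826 across the loci of Bdh1 and Bdh2. Whether these probe sets cover shared bases was not tested.

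**Figure D2:**
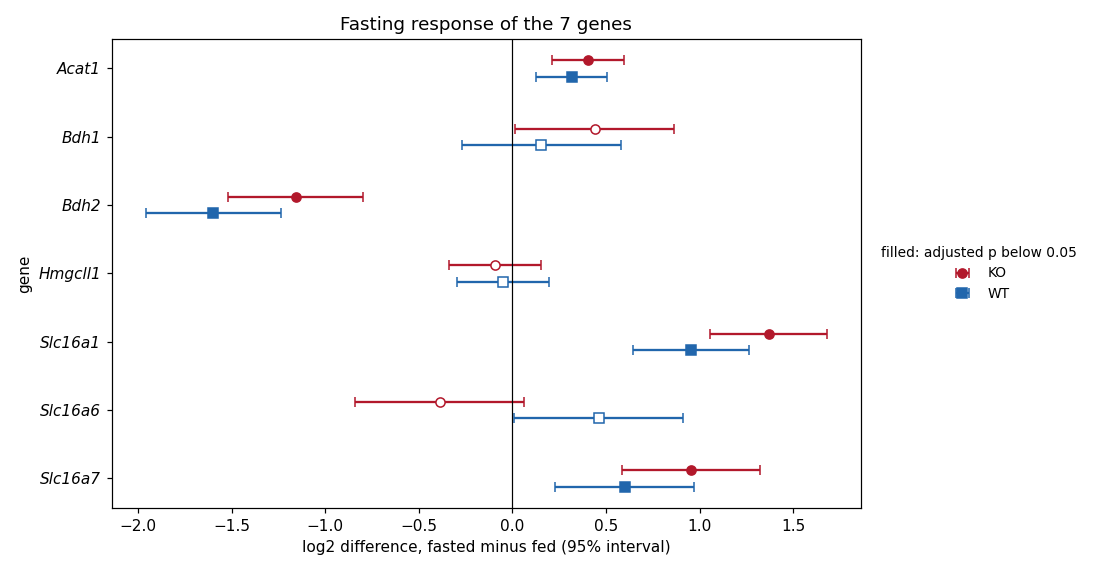
Log2 difference of fasted minus fed liver (horizontal axis) for each of the 7 genes, with 95% intervals from limma, for KO (circles) above WT (squares). Filled symbols passed an adjusted p of 0.05. Slc16a1 (1.37 and 0.95), Slc16a7 (0.95 and 0.60) and Acat1 (0.40 and 0.32) were higher and Bdh2 (-1.16 and -1.60) lower in both genotypes.

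The position code in the array names holds the number 5 or 7, and each number is carried by 2 arrays of every group. What the number stands for is not known here. With it as a block the same 4 members were called in each genotype, and within each number every called member kept its sign. For Slc16a1 the difference within numbers 5 and 7 was 1.55 and 1.19 in KO (limma adjusted p = 0.00452 and 0.0314) and 0.98 and 0.93 in WT liver (limma adjusted p = 0.0502 and 0.0510). For Bdh2 it was -1.41 and -0.91 in KO (limma adjusted p = 0.00132 and 0.131) and -1.26 and -1.94 in WT liver (limma adjusted p = 0.00378 and 0.0108). Bdh2 was thus lower within each number in both genotypes.
For Slc16a7 it was 0.74 and 1.17 in KO (limma adjusted p = 0.0480 and 0.0288) and 0.44 and 0.76 in WT liver (limma adjusted p = 0.274 and 0.0779). For Acat1 it was 0.50 and 0.30 in KO (limma adjusted p = 0.0419 and 0.375) and 0.21 and 0.43 in WT liver (limma adjusted p = 0.460 and 0.135). Bdh1 was called in KO liver within number 5 alone (0.60, limma adjusted p = 0.0217).

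Markers of hepatocytes and of other cell types were also compared between fasted and fed liver. Of 9 hepatocyte markers 0 were called in KO and 2 were higher in fasted WT liver, where 3.34% of all genes were higher. Their median log2 difference was -0.01 in KO and 0.01 in WT liver. Of 10 stellate cell markers 2 were lower in fasted KO than in fed KO and 2 in fasted WT than in fed WT liver, where 4.89% and 4.27% of all genes were lower (median log2 difference -0.13 in KO and -0.12 in WT). Of 10 Kupffer cell markers 0 were called in KO and 1 was lower in fasted WT liver, with a median log2 difference of -0.31 in KO and -0.36 in WT liver. The Kupffer cell differences were positive for 2 of 10 markers in KO and 1 of 10 in WT. Of 10 endothelial markers 0 were called in either genotype (median 0.09 in KO and -0.09 in WT). The 6 acinar markers had log2 differences of 0.98 to 1.68 in WT liver, with 0 called, where fasted WT 4 carried their transcripts. The Kupffer cell list averaged 7.97 to 8.73 on fasted KO, 8.19 to 8.72 on fasted WT, 8.37 to 8.66 on fed KO and 8.51 to 9.21 on fed WT arrays. The stellate cell list averaged 7.93 to 8.03, 7.92 to 8.17, 8.07 to 8.23 and 8.13 to 8.40 on the arrays of the same groups. Their part in the members' changes was not tested.

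The loss of vanin-1 was then examined in the fasted and the fed liver. No member was called in either comparison, where 0.0159% of all genes were called in fasted liver (0.0106% higher, 0.00531% lower) and 0.00531% in fed liver. At an unadjusted p under 0.05 the count was 1 of 7 in fasted liver, Slc16a1, and 2 of 7 in fed liver, Slc16a6 and Bdh2. At that same threshold 1033 of 18820 genes passed in fasted liver and 1084 of 18820 in fed liver.

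Slc16a1 averaged 10.63 ± 0.15 in fasted KO and 10.15 ± 0.34 in fasted WT liver (SD, n = 4 each), a log2 difference of 0.48 (95% interval 0.16 to 0.79, limma adjusted p = 0.850). The lowest fasted KO array and the highest fasted WT array both rounded to 10.48, and at full precision the groups did not overlap, as held for 3.15% of all genes. Without fasted WT 4 the difference was 0.33. In fed liver the difference was 0.06 (95% interval -0.25 to 0.37, limma adjusted p = 0.964), with 9.26 ± 0.19 in KO and 9.19 ± 0.20 in WT.

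Slc16a6 averaged 6.14 ± 0.39 in fed KO and 5.59 ± 0.43 in fed WT liver, a log2 difference of 0.54 (95% interval 0.09 to 0.99, limma adjusted p = 0.855). In fasted liver it averaged 5.75 ± 0.36 in KO and 6.06 ± 0.08 in WT, a difference of -0.31 (95% interval -0.76 to 0.14, limma adjusted p = 0.947). The fed difference was 0.35 without fed KO 4, and the fasted difference was -0.14 without fasted KO 3. The arrays of the genotypes overlapped in each state, and in fed liver they overlapped for every member, where 3.12% of all genes did not overlap.

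Bdh2 averaged 8.18 ± 0.29 in fed KO and 8.55 ± 0.23 in fed WT liver, a log2 difference of -0.37 (95% interval -0.73 to -0.00416, limma adjusted p = 0.859). It averaged 7.02 ± 0.11 in fasted KO and 6.95 ± 0.38 in fasted WT liver, a difference of 0.07 (95% interval -0.29 to 0.44, limma adjusted p = 0.989). For Slc16a7, Bdh1, Acat1 and Hmgcll1 the genotype differences ran from 0.10 to 0.21 in fasted and from -0.25 to 0.15 in fed liver. Among their 95% intervals the lowest bound was that of Slc16a7 in fed liver, at -0.62. The highest bound was that of Bdh1 in fasted liver, at 0.63. Missing the threshold does not show that the genotypes were alike.

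Whether the fasting responses differed between genotypes was tested directly as the KO response minus the WT response. No member was called, as was no gene in the whole table (0% of 18820), where 924 genes had an unadjusted p under 0.05. The log2 difference of responses was -0.85 for Slc16a6 (95% interval -1.49 to -0.21, unadjusted p = 0.0122, limma adjusted p = 0.948). This was the 1 member of 7 with an unadjusted p under 0.05. It was 0.42 for Slc16a1 (95% interval -0.03 to 0.86), 0.44 for Bdh2 (95% interval -0.07 to 0.95) and 0.35 for Slc16a7 (95% interval -0.17 to 0.88), all with a limma adjusted p of 0.948. Bdh1 gave 0.29, Acat1 0.09 and Hmgcll1 -0.04. Without fasted WT 4 the Slc16a1 value was 0.27 and the Bdh2 value 0.25.

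**Figure D3:**
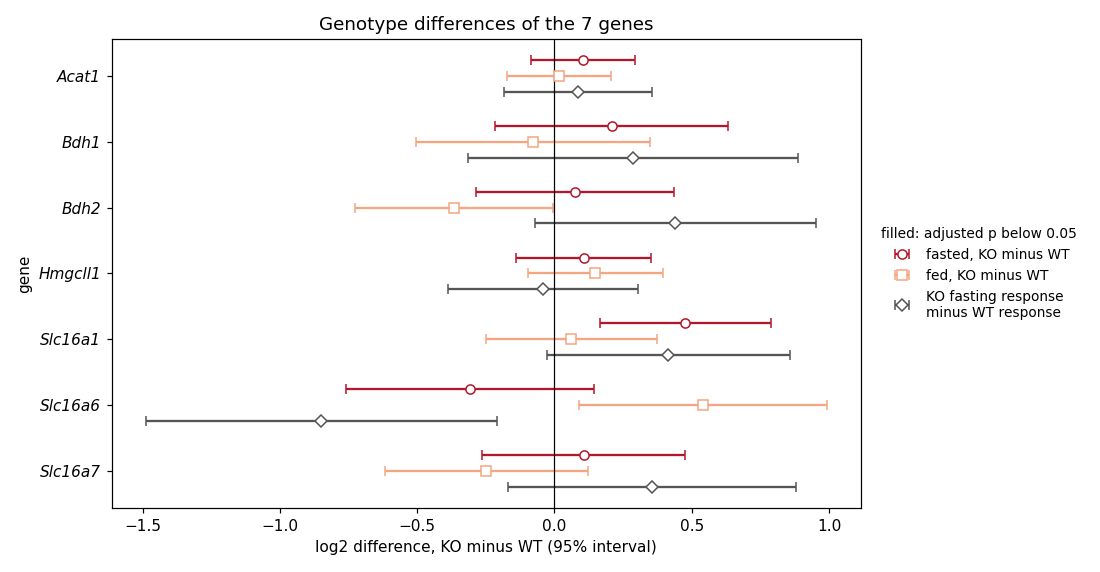
Log2 difference of KO minus WT (horizontal axis) for the 7 genes in fasted liver (circles) and fed liver (squares), and the KO fasting response minus the WT fasting response (diamonds), with 95% intervals from limma. No symbol is filled because no value passed an adjusted p of 0.05. Slc16a1 in fasted liver (0.48) and Slc16a6 in fed liver (0.54) had the highest values of their state.

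Other genes of the pathway were described in 3 lists. Of 9 other ketone body enzymes listed, 5 were measured, and of these 2 fell while 3 did not pass in each genotype. Of all genes, 4.89% in KO and 4.27% in WT liver were lower. The median log2 difference of the 5 measured enzymes was -0.36 in KO and -0.23 in WT liver. The ones that fell act outside ketone body production. Aacs, which activates acetoacetate in the cytosol for lipid synthesis, averaged 6.45 ± 0.51 in fasted KO and 8.53 ± 1.04 in fed KO liver (4.21-fold lower, limma adjusted p = 0.00248). In WT liver its log2 difference was -2.44 (5.42-fold lower, limma adjusted p = 0.00117). Hmgcs1, the cytosolic synthase that feeds cholesterol synthesis, averaged 9.83 ± 0.45 in fasted KO and 11.26 ± 0.36 in fed KO liver (2.69-fold lower, limma adjusted p = 9.70e-04). In WT liver it averaged 9.49 ± 0.41 fasted and 11.01 ± 0.30 fed (2.87-fold lower, limma adjusted p = 9.58e-04). Oxct1, the transferase that lets tissues other than liver use ketone bodies, lay near the array medians, at 4.92 ± 0.20 in fasted KO and 5.28 ± 0.12 in fed KO liver (limma adjusted p = 0.154). It was 5.09 ± 0.22 in fasted WT and 5.32 ± 0.33 in fed WT liver (limma adjusted p = 0.410).

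Of 15 other monocarboxylate transporters and their partners 14 were measured, and 1 rose in each genotype while 13 did not pass. The share of all genes that rose was 4.53% in KO and 3.34% in WT liver. The median of the list was 0.03 in KO and 0.01 in WT liver. The one that rose was Slc16a5, a transporter of the same family. It averaged 8.48 ± 0.30 in fasted KO and 6.62 ± 0.81 in fed KO liver (3.61-fold, limma adjusted p = 6.82e-04). It averaged 8.81 ± 0.40 in fasted WT and 6.65 ± 0.14 in fed WT liver (4.47-fold, limma adjusted p = 3.72e-04). Bsg, the chaperone that brings Slc16a1 to the membrane, averaged 10.35 ± 0.06 in fasted KO and 10.36 ± 0.07 in fed KO liver. In WT liver it averaged 10.36 ± 0.03 fasted and 10.33 ± 0.10 fed, with 95% intervals of the fasting difference of -0.14 to 0.14 in KO and -0.11 to 0.17 in WT. The lactate exporter gene Slc16a3 and the MCT2 partner gene Emb stayed under the array medians in all groups, with limma adjusted p-values of 0.800 and 0.976 in KO and 0.984 and 0.538 in WT liver.

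The third list held genes that bring fatty acids to ketogenesis or control it. Of 17 measured, 8 rose in KO and 10 in WT liver and 0 fell in either (median 0.58 and 0.51). Over all genes the shares that rose were 4.53% in KO and 3.34% in WT liver. Hadhb, the thiolase subunit of the trifunctional protein, rose 2.13-fold in KO (limma adjusted p = 1.13e-05) and 1.67-fold in WT liver (limma adjusted p = 5.58e-04). The medium-chain dehydrogenase gene Acadm rose by 0.86 on the log2 scale in KO and by 0.58 in WT liver. Cpt2 (1.74-fold and 1.56-fold) and Slc25a20 (1.78-fold in both), which take part in the entry of fatty acids into the matrix, rose in KO and WT liver. Cpt1a, Acadl and Hadha also rose in both. Fgf21 had the largest rise of the list in KO liver (log2 difference 2.20, limma adjusted p = 3.59e-07). In WT liver it rose by 1.47 (limma adjusted p = 2.83e-05). Its fed KO mean of 4.80 lay under the array medians. The coactivator gene Ppargc1a (limma adjusted p = 0.0594 in KO and 0.00283 in WT) and the transcription factor gene Creb3l3 (0.0509 in KO and 0.0150 in WT) were called in WT liver, and Creb3l3 was not called there without fed WT 4 (limma adjusted p = 0.0510). Their difference between genotypes was not called. Acaa2, a mitochondrial thiolase, gave log2 differences of 0.03 in KO and 0.02 in WT liver and did not pass, and Ppara (0.24 and 0.07) did not pass either.

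**Figure D4:**
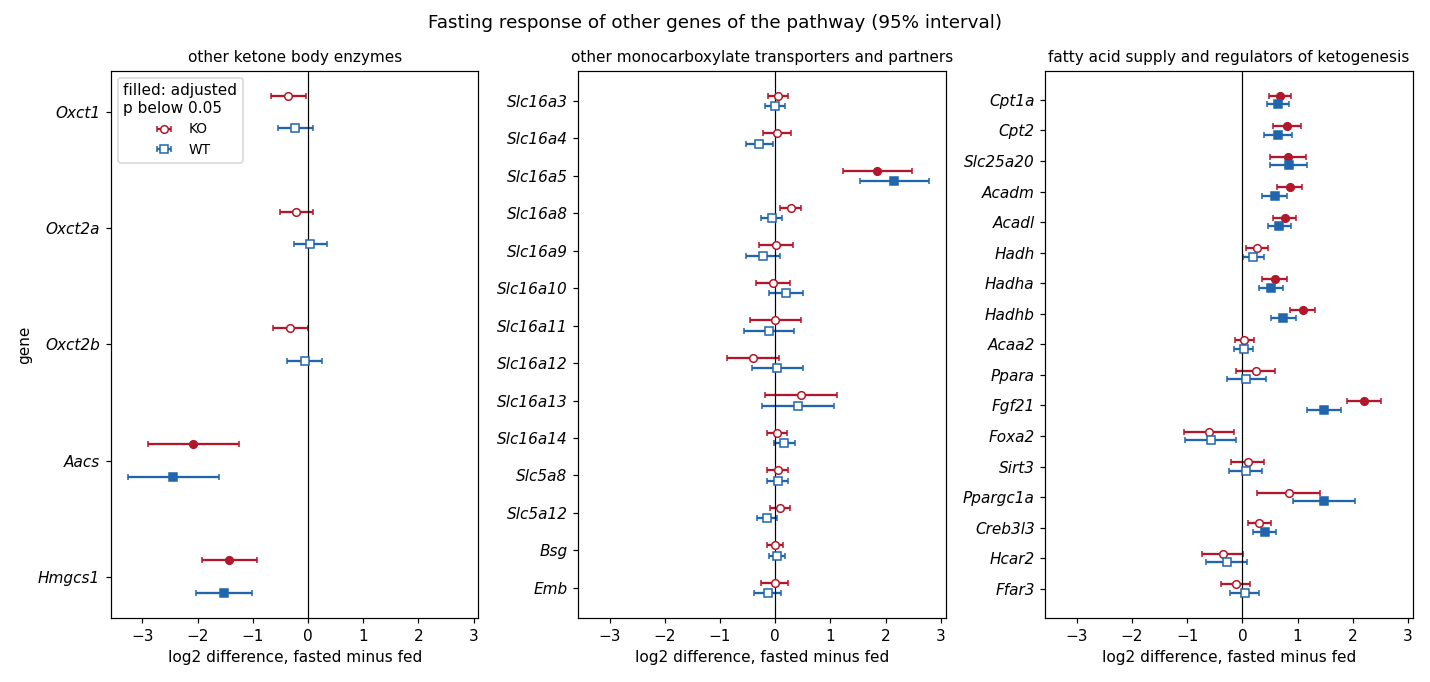
Log2 difference of fasted minus fed liver (horizontal axis), with 95% intervals from limma, for the measured genes of 3 lists in KO (circles) and WT (squares). Filled symbols passed an adjusted p of 0.05. Aacs and Hmgcs1 fell, Slc16a5 was the 1 other transporter gene that rose, and 8 (KO) and 10 (WT) of 17 fatty acid supply and regulator genes rose.

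The members were also described by how they varied together over the 16 arrays, which share the fed and fasted split and the array platform. Pearson's correlation was 0.88 between Slc16a1 and Acat1, 0.85 between Slc16a1 and Slc16a7, and -0.83 between Bdh2 and Acat1. After group means were taken away the same pairs gave 0.35, 0.50 and -0.23. Bdh1, which did not pass on fasting, correlated within groups at 0.65 with Slc16a7, 0.64 with Slc16a1 and 0.62 with Acat1. Slc16a6 correlated within groups at -0.57 with Acat1, -0.54 with Slc16a7 and -0.53 with Bdh1. Fasted WT 4 was the lowest of its group for Bdh1, Slc16a7, Slc16a1 and Acat1 and the highest for Slc16a6. How far that array carried these correlations was not tested.

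Among 9229 named genes with a mean level above the median, those most like Slc16a1 over 16 arrays were Bace1 (r = 0.98, and 0.90 within groups), Slc4a4 (0.98 and 0.83) and Enc1 (0.97 and 0.72). Acat1 was most like Decr1 (0.98 and 0.94 within groups), Vwa8 (0.97 and 0.92) and Ech1 (0.96 and 0.86), of which Decr1 and Ech1 encode enzymes of unsaturated fatty acid oxidation. Slc16a7 was most like Acot4 (0.94 and 0.87), Kif1b (0.93 and 0.77) and Acot1 (0.93 and 0.84). Acot1 and Acot4 encode acyl-CoA thioesterases.

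Bdh2 was most like Cmtm6 (0.97 and 0.82 within groups), Clec2h (0.95 and 0.61) and Cyp4f14 (0.95 and 0.55), all of them lower in fasted liver. Bdh1 was most like Pbld2 (0.89 and 0.90), Grpel2 (0.88 and 0.86) and Phlpp1 (0.86 and 0.88). The highest values for Slc16a6, 0.78 with Taf2, 0.76 with Prox1 and 0.76 with Prkcsh, and for Hmgcll1, 0.85 with Vat1, 0.73 with Parp12 and 0.72 with Capza1, were lower than those of the other members.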

How the data were processed

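Liver RNA from 16 samples was labelled with biotin and hybridised to whole-transcript arrays. The authors deposited log2 intensity values; RMA is named in the submitters' processing notes, without a version. The 35556 probe sets ranged in value from 1.26 to 14.19. The 21218 probe sets with 1 gene symbol were kept, and for a gene with several the one with the highest mean, which left 18820 genes, without a filter on dim genes. Group means were fitted to all 16 arrays with limma 3.58.1 in R 4.3.3 (12 residual and 4.66 prior degrees of freedom), two-sided, with Benjamini-Hochberg adjustment over all genes. The procedure was tested on simulated arrays. Genes named were the members, Vnn1, called genes of the pathway lists, Oxct1 and Bsg, and for each member the 3 most correlated genes; Slc16a3, Emb, Acaa2 and Ppara were named after their values were seen. Some listed genes are not reported here. Members, lists and tests were chosen with earlier results of these data known. Alternatives, 33 settings in all, were other scalings, filters, probe set means, variance priors, array weights, fewer groups, blocks, arrays left out and a threshold of 0.01. Title numbers were not used to pair the samples in the main fit. Arrays with the same title number also shared the position number 5 or 7. Deviations of same-numbered arrays from group means correlated at -0.220 to 0.209, over 0.1 in 4 of 24 pairs. Such weak values cannot exclude a pairing.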

Additional observations from a re-analysis of the deposited data

Results flagged for a closer look

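Over 32 groups of 4 arrays (the 7 genes and Vnn1), 3 held an array far from the other 3 by Dixon's test, which chance does in about 1 in 20 groups. Bdh1 lay at 10.12 on fasted WT 4, against 11.02 to 11.07 on the other fasted WT arrays. Bdh2 lay at 6.38 on the same array, against 7.08 to 7.20 on the others. That array also carried the pancreatic acinar transcripts, and their part in these values was not tested. Slc16a1 lay at 9.49 on fed WT 1, against 9.07 to 9.13 on the other fed WT arrays.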

How the results depend on the processing

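No direction of a called member turned under any of the 33 settings. Of the members' fasting differences over these settings, 226 of 229 in KO kept their side of the threshold, 2 lost the call and 1 gained it. In WT, 193 of 229 kept it and 36 lost it. These totals include Bdh1, Slc16a6 and Hmgcll1, which had no call to lose. The WT calls of Slc16a7 and Acat1 were each lost in 17 of 33 settings, and that of Slc16a1 in 2. All genotype and interaction values of the members stayed uncalled. With only the arrays of position number 7, 2 members and 188 genes were called for fasting in KO, 1 member and 395 genes for fasting in WT, and 2 genes for the difference in response. With number 5 the counts were 5 members and 703 genes in KO, and 1 member and 332 genes in WT. Array weights left 2 members for fasting in WT, and using only the groups compared left 2 members and 829 genes there. Without the 3 arrays whose names end in 2, fasting called 964 genes in KO and 2 members in WT, and KO against WT called 1 gene fasted and 0 fed. At an adjusted p below 0.01, fasting called 879 genes in KO, and 2 members and 576 genes in WT, and fasted KO against fasted WT called 1 gene. Fed KO against fed WT called 2 genes under median centring, the 50th percentile filter, the trended prior, the robust prior and array weights, and 0 with only the groups compared. Leaving out 1 array at a time, fasting in WT called 2 to 4 members and 880 (without fasted WT 4) to 1608 genes, fasted KO against fasted WT 1 to 5 genes, fed KO against fed WT 1 to 3 and the difference in response 0 to 1. Without both fasted WT 4 and fed KO 4, fasted KO against fasted WT called 1 gene. With the title number as a replicate block, 4 members were called for fasting in each genotype, with 1658 genes in KO and 1324 in WT. Whether the title numbers pair the samples is not known here. The cause of these shifts was not tested. Signal over background limits Hmgcll1, which lay under the array medians.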
